A study of Mus musculus with 9 samples.

Results

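The gasdermin C cluster and gasdermin D of the mouse were followed across the 3 groups of a colitis experiment. The 5 genes, *Gsdmc*, *Gsdmc2*, *Gsdmc3*, *Gsdmc4* and *Gsdmd*, were chosen by their symbols from 27719 genes in the count table, with earlier results of these data known, among them the low level of *Gsdmc3* after DSS. RNA of mouse colon was read as full-length cDNA on a Nanopore sequencer, with 1 library for each of 9 C57BL/6J mice. The control group (n = 3) drank distilled water and the DSS group (n = 3) drank 2.5% dextran sodium sulfate, an agent that injures the colon epithelium, for 7 days. The DSS + EA group (n = 3) drank the same DSS and, starting after 5 days of it, also received electroacupuncture (EA) at the ST36 points of both hind limbs, once a day for 5 days, 30 min at 2 Hz and 0.2 mA. Control and DSS mice were held for as long without EA. All mice were of a single inbred strain. Their age and sex were not given in the sources used here. The EA effect was measured only on top of DSS, since no mice received EA without it.

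Gasdermins are stored as inactive proteins in which a C-terminal domain covers a pore-forming N-terminal domain. A protease cuts the linker between the domains, and the freed N-terminal parts assemble into pores in the cell membrane, through which mature IL-1 family cytokines leave and which can end in lytic cell death, called pyroptosis. Gasdermin D is the substrate of the inflammatory caspases 1 and 11 and is made in both epithelial and immune cells, while the gasdermin C genes, present in several copies in the mouse and in a single copy in the human, are known in the gut as genes of the epithelium that respond to type 2 cytokines.

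The 4 *Gsdmc* copies lie side by side on the minus strand of chromosome 15. By GENCODE M21 on GRCm38, the build called mm10 in the submitters' processing notes, *Gsdmc* (ENSMUSG00000079025) spans chr15:63775968-63808759, *Gsdmc2* (ENSMUSG00000056293) chr15:63824346-63845177, *Gsdmc3* (ENSMUSG00000055827) chr15:63857724-63878558 and *Gsdmc4* (ENSMUSG00000055748) chr15:63891264-63912297. Together they cover 136330 bases. *Gsdmd* (ENSMUSG00000022575) lies on the plus strand of the same chromosome, chr15:75862327-75867408, 11950030 bases beyond the cluster.

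**Figure D1:**
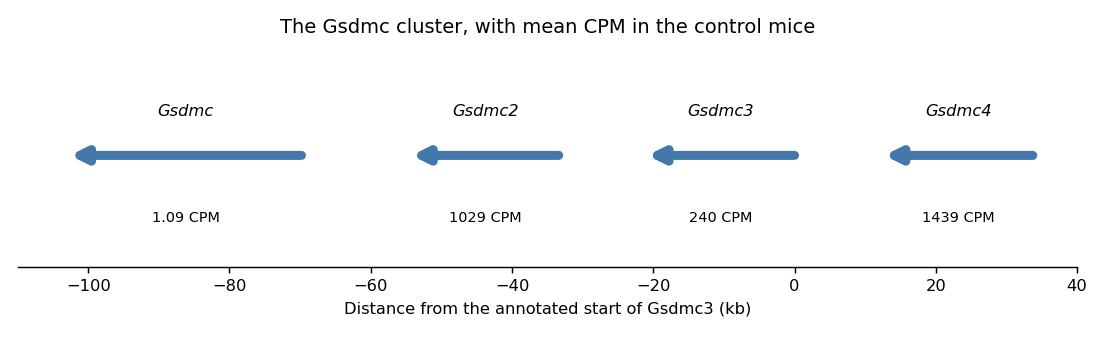
Map of the 4 *Gsdmc* copies to scale, with distance from the annotated start of *Gsdmc3* in kb on the x axis. Arrows run in the direction of transcription, and the number under each arrow is the mean CPM over the 3 control mice, from 1.09 for *Gsdmc* to 1439 for *Gsdmc4*.

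The copies are close in sequence, which bears on how reads are shared out among them. Over the coding sequence, *Gsdmc2* and *Gsdmc3* were identical at 97.1% of 1440 aligned bases and differed at 42. *Gsdmc4* was 93.5% identical to *Gsdmc2* and 93.4% identical to *Gsdmc3*, whereas *Gsdmc* was 85.9% to 87.1% identical to the other copies. *Gsdmd* was a distant relative, at 46.7% to 48.0% identity. The first 90 coding bases of the 3 expressed copies (GENCODE M21, 5′ to 3′) are shown because a read of this stretch can hardly separate them. Capitals in *Gsdmc3* mark positions where any of the 3 copies differ, and capitals in the other 2 mark bases unlike *Gsdmc3*.
Gsdmc3: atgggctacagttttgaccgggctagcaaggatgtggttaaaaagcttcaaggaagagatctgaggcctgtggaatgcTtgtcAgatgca
Gsdmc2: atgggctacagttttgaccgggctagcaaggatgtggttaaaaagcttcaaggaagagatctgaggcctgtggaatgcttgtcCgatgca
Gsdmc4: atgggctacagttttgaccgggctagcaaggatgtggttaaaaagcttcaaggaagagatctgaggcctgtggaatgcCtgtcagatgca

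The copies are told apart farther along. The 90 aligned bases with the most differences, bases 778 to 867 of *Gsdmc3* and *Gsdmc2* and 784 to 873 of *Gsdmc4*, had 22 differing positions. There *Gsdmc2* differed from *Gsdmc3* at 13 positions and *Gsdmc4* at 15, marked in capitals as above.
Gsdmc3: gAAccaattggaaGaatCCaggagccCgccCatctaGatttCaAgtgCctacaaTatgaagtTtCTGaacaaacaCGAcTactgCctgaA
Gsdmc2: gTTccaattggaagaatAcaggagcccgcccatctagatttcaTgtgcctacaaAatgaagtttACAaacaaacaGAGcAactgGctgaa
Gsdmc4: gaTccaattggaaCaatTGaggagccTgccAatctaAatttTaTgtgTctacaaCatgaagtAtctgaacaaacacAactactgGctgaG

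Over 1434 coding positions without a gap, *Gsdmc4* alone differed at 71, *Gsdmc3* alone at 20 and *Gsdmc2* alone at 19. How the counting tool placed such reads, and whether it used strand, was not given in the sources used here, so the counts of single copies are uncertain and the sum over the cluster is given beside them.

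*Gsdmc3* was the only member of the 5 with a promoter sequence in the RefSeq table used (GRCm38.p6). Its 250 bases before the start, chr15:63878559-63878808 on the minus strand, are shown because this is the copy noted for its low level with DSS.
Gsdmc3 promoter: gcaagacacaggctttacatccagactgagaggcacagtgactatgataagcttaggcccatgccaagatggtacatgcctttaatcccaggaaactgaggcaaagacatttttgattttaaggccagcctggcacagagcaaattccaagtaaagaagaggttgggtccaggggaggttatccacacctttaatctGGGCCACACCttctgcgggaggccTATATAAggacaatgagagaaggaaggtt
Capitals mark 2 matches in this stretch to the letters searched. Only the exact letters given below were searched, so other forms of these sites are not covered. The TATA box letters TATATAA began 29 bases before the start, and 3.04% of 32851 promoters of the same length held them on either strand. The NF-kB type letters GGGNNNNNCC began 53 bases before the start and were in 45.8% of promoters. The letters searched for STAT6, the factor downstream of IL-4 and IL-13 (TTCNNNNGAA, in 5.85% of promoters), for STAT factors of the GAS type (TTCNNNGAA, 7.02%), CDX2 (TTTATNG, 9.81%), AP-1 (TGANTCA, 6.75%), HNF4A (CAAAGTCCA, 0.384%) and GATA factors (AGATAA, 9.99%) were not in this window.

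Libraries held 2627695 to 4235576 counts, so that 3 counts, taken as the lowest readable level, equalled 0.708 to 1.14 CPM (counts divided by the TMM-adjusted total of the library and scaled alike). The defining markers of colon epithelium were present in every mouse, with all 9 pan-epithelial genes detected throughout. Epithelial content differed among the DSS mice. Their summed CPM of those 9 genes was 4316, 2349 and 1109 in mice 1, 2 and 3, against 5279 to 6153 in the control group and 4468 to 5714 in the DSS + EA group. All 3 DSS + EA mice stood apart by pancreas acinar markers. Over 9 of the 10 genes listed, without *Clps*, they summed to 1230, 78120 and 44245 counts in DSS + EA mice 1, 2 and 3, against 0 to 6 in the control group and 2 to 11 in the DSS group. *Clps*, the gene of pancreatic colipase, was also counted in the control mice (659 to 2109 counts), so it does not mark this difference.

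Transcripts of *Gsdmc2*, *Gsdmc3* and *Gsdmc4* were abundant in the control colon, almost absent after DSS, and intermediate after DSS + EA. In the DSS group they were at 1.23% to 2.20% of the control mean, and in the DSS + EA group at 9.74% to 12.5% of it. *Gsdmd* took another course. It was at 65.1% of the control mean in the DSS group and at 194% of it in the DSS + EA group. Among 9 mice and 4 genes, no value of any group fell within the range of another group of the same gene. Over all 12566 genes tested, the groups did not overlap for 52.0% in DSS against control, the comparison in which the members were noted. The share was 47.4% in DSS + EA against DSS and 32.2% in DSS + EA against control.

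**Figure D2:**
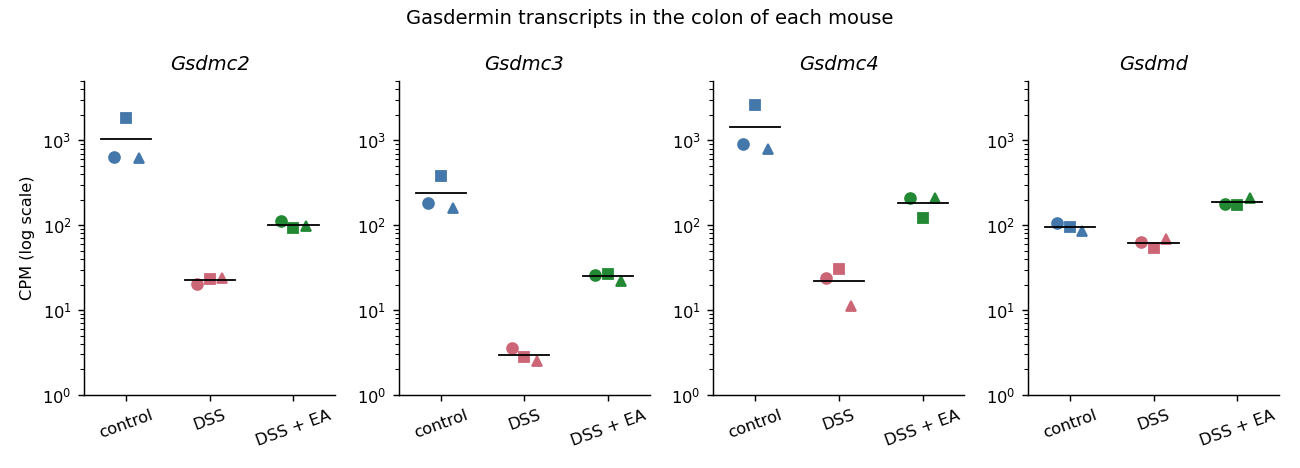
CPM of *Gsdmc2*, *Gsdmc3*, *Gsdmc4* and *Gsdmd* in each mouse, on a log axis. Circles, squares and triangles are mice 1, 2 and 3 of each group, and black lines are group means. The 3 *Gsdmc* genes order as control, DSS + EA, DSS, and *Gsdmd* orders as DSS + EA, control, DSS.

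*Gsdmc3* had 719, 1138 and 415 counts in control mice 1, 2 and 3, or 183, 378 and 159 CPM. In the DSS mice it had 11, 13 and 8 counts, or 3.54, 2.82 and 2.50 CPM, which lies only a few counts above the lowest readable level. In the DSS + EA mice it had 84, 72 and 70 counts, or 25.6, 26.9 and 22.2 CPM. The spread was widest in the control group, where the highest mouse held 2.38 times the lowest. Group means were 240 ± 120, 2.95 ± 0.533 and 24.9 ± 2.42 CPM (SD, n = 3 each) for control, DSS and DSS + EA.

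*Gsdmc2* showed 638, 1832 and 617 CPM in the control mice, 20.3, 23.5 and 24.0 CPM in the DSS mice and 111, 92.3 and 97.7 CPM in the DSS + EA mice. Its means were 1029 ± 695, 22.6 ± 2.03 and 100 ± 9.52 CPM (SD, n = 3 each). *Gsdmc4* showed 915, 2614 and 789 CPM in the control mice, 24.1, 30.6 and 11.2 CPM in the DSS mice and 207, 123 and 212 CPM in the DSS + EA mice. Its means were 1439 ± 1019, 22.0 ± 9.87 and 181 ± 50.0 CPM. Control mouse 2 was the highest control for all 3 of these copies, and without it the control values still lay above every treated mouse.

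*Gsdmc*, the copy at the far end of the cluster, was close to silent. It had 7, 1 and 3 counts in the control mice, 0 in every DSS mouse and 0, 0 and 1 in the DSS + EA mice. Most of these counts were at or below 3, so it was left out of the fit by the filter on low counts and no fold is given.

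*Gsdmd* had 419, 288 and 221 counts in the control mice, or 106, 95.8 and 84.7 CPM. In the DSS mice it had 200, 247 and 220 counts, or 64.3, 53.7 and 68.7 CPM, and in the DSS + EA mice 580, 465 and 652 counts, or 177, 174 and 207 CPM. Its spread within a group was narrow, with the highest mouse at 1.19 to 1.28 times the lowest. Means were 95.6 ± 10.9, 62.2 ± 7.72 and 186 ± 18.4 CPM (SD, n = 3 each).

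Levels of different genes were compared as CPM per kb of transcript. The reads were of full-length cDNA, so their number need not grow with transcript length, and CPM without this division is given at the end. In the control group *Gsdmc4* averaged 690 ± 489 and *Gsdmc2* 476 ± 322 CPM per kb, with a wide spread between mice. In each control mouse *Gsdmc4* was the higher, at 915, 2614 and 789 CPM against 638, 1832 and 617 CPM. How reads were divided between the copies was not given. *Gsdmc3* followed with 110 ± 55.2 and *Gsdmd* with 53.4 ± 6.08. With DSS the order turned, and *Gsdmd* had the highest level at 34.7 ± 4.31 CPM per kb, above *Gsdmc4* at 10.6 ± 4.74, *Gsdmc2* at 10.4 ± 0.939 and *Gsdmc3* at 1.36 ± 0.245. In the DSS + EA group *Gsdmd* averaged 104 ± 10.2 and *Gsdmc4* 86.6 ± 24.0 CPM per kb, which do not differ beyond their spread, with *Gsdmc2* at 46.4 ± 4.41 and *Gsdmc3* at 11.4 ± 1.11. As plain CPM, *Gsdmd* and *Gsdmc4* were almost level in that group, at 186 ± 18.4 and 181 ± 50.0. *Gsdmd* was also highest as plain CPM with DSS, at 62.2 ± 7.72 beside 22.6 ± 2.03 for *Gsdmc2* and 22.0 ± 9.87 for *Gsdmc4*.

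The comparison of the DSS group with the control group is the one in which the members were noted, so it is given as a description without a test. Without control mouse 2, the highest control for the *Gsdmc* copies, the folds of these copies were smaller, as given after each. The log2 fold change of *Gsdmc3* was -6.33 (SE 0.40), which is 80.5-fold lower with DSS (58.7-fold without that mouse). It was -6.02 (SE 0.60, 65.0-fold lower, 39.4-fold without it) for *Gsdmc4*, -5.51 (SE 0.46, 45.4-fold lower, 28.4-fold without it) for *Gsdmc2* and -0.62 (SE 0.18, 1.54-fold lower, 1.57-fold without it) for *Gsdmd*. Summed over the *Gsdmc* cluster, control mice 1, 2 and 3 held 6839, 14509 and 4086 counts, and DSS mice held 149, 262 and 121. This equalled 0.155% to 0.449% of all counts in the control group and 0.00375% to 0.00619% in the DSS group. In this comparison groups did not overlap for 52.0% of 12566 genes tested, and 21.5% of genes were called higher and 19.5% lower at an adjusted p under 0.05 (edgeR quasi-likelihood test, Benjamini-Hochberg).

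EA given on top of DSS, from its later days until after it ended, was compared with DSS alone to ask whether the members moved with treatment. These values use the same DSS mice as the comparison in which the members were noted, so they are not independent of it. All 4 tested members were higher in the DSS + EA group by the edgeR test. *Gsdmc3* was 8.36-fold higher (log2 fold change 3.06, SE 0.38, adjusted p = 0.000619) and *Gsdmc4* 8.16-fold higher (3.03, SE 0.53, adjusted p = 0.00269). *Gsdmc2* was 4.43-fold higher (2.15, SE 0.40, adjusted p = 0.00355) and *Gsdmd* 2.99-fold higher (1.58, SE 0.18, adjusted p = 0.000472). Over all genes 17.2% were called higher and 18.3% lower, and the groups did not overlap for 47.4%. The median log2 fold change of all genes was -0.02. These 4 calls held without any single mouse. Since all 3 DSS + EA mice held pancreas transcripts, no call could be made without them.

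Against the control group, which shares the control mice with the first comparison, EA-treated mice were low in the cluster. By the edgeR test *Gsdmc2* was 10.3-fold lower (log2 fold change -3.36, SE 0.41, adjusted p = 0.00349), *Gsdmc3* 9.64-fold lower (-3.27, SE 0.33, adjusted p = 0.00184) and *Gsdmc4* 7.97-fold lower (-2.99, SE 0.52, adjusted p = 0.0137). *Gsdmd* was 1.94-fold higher (0.96, SE 0.18, adjusted p = 0.0177). Few genes differed between these groups. Over all genes 3.00% were called higher and 0.637% lower, so that 3 of the 80 lower genes were *Gsdmc* copies, and groups did not overlap for 32.2% of genes. The calls for *Gsdmc2* and *Gsdmc3* held without any single mouse. The call for *Gsdmc4* was lost without DSS + EA mouse 2 (adjusted p = 0.0564 by edgeR) or mouse 3 (adjusted p = 0.0712). The call for *Gsdmd* was lost without any 1 of the 6 control and DSS + EA mice, with adjusted p from 0.0516 to 0.134 and log2 fold changes from 0.84 to 1.04, and held without each DSS mouse. Without control mouse 2, *Gsdmc2* was 6.25-fold, *Gsdmc3* 6.85-fold and *Gsdmc4* 4.71-fold lower than control.

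The make-up of the cluster was then compared among mice, as each copy's share of all reads assigned to it, with 95% Wilson intervals that cover counting error only. In the control mice *Gsdmc4* gave 50.4% to 54.2% of cluster reads, *Gsdmc2* 36.7% to 39.4% and *Gsdmc3* 7.84% to 10.5%. In DSS mice 1 and 2, *Gsdmc4* gave 50.3% (42.4% to 58.3%) and 53.8% (47.8% to 59.8%), within counting error of the control range. DSS mouse 3 stood apart, with *Gsdmc4* at 29.8% (22.3% to 38.4%) and *Gsdmc2* at 63.6% (54.8% to 71.7%) of 121 reads. In the DSS + EA mice *Gsdmc4* gave 60.2%, 50.8% and 63.8% of reads. Mice 1 and 3 lay above the control range, whereas mouse 2 lay within it. *Gsdmc3* gave 4.96% to 7.38% of reads in the DSS group and 6.68% to 11.1% in the DSS + EA group. The control and DSS ranges of its share did not overlap, but the Wilson interval of each DSS mouse, the widest being 3.39% to 12.5% in mouse 3, reached into the control range. All 3 copies were thus lower in every DSS mouse, and the shares of single copies moved far less than the total.

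**Figure D3:**
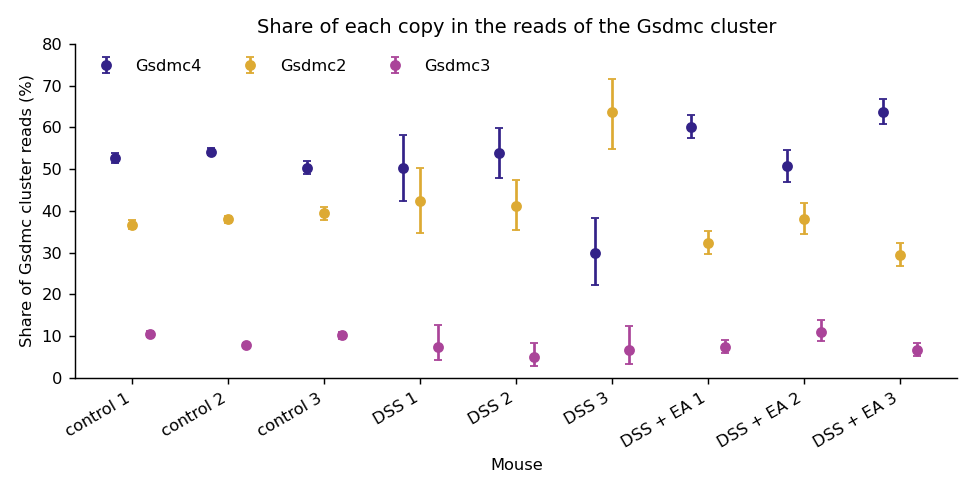
Share of *Gsdmc4*, *Gsdmc2* and *Gsdmc3* in the reads of the *Gsdmc* cluster in each mouse, in percent, with 95% Wilson intervals. *Gsdmc4* leads in 8 mice and *Gsdmc2* leads in DSS mouse 3, whose intervals are wide since it has 121 cluster reads.

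Colon tissue is a mix of cells, and in such bulk samples fewer epithelial cells and less RNA per cell cannot be told apart. The cluster was therefore also expressed per 1000 reads of the 9 pan-epithelial markers. This ratio was 317, 914 and 255 in the control mice, 11.1, 24.2 and 34.0 in the DSS mice and 60.0, 54.2 and 65.0 in the DSS + EA mice. The 3 groups stayed apart, and the group means were 495 ± 364, 23.1 ± 11.5 and 59.7 ± 5.43 (SD, n = 3 each). The control mean was 21.4 times the DSS mean and 8.29 times the DSS + EA mean. DSS mouse 1 had the lowest ratio and, at 4316 CPM, the highest epithelial marker level of the DSS group, by which the ratio is divided. It had 149 cluster counts over 13417 marker counts, and DSS mouse 3 had 121 over 3554. Control mouse 2 raised the control mean, which was 286 without it, or 12.4 times the DSS mean and 4.79 times the DSS + EA mean. With *Epcam*, an epithelial adhesion molecule, as the only marker, the control mean was 22.5 times the DSS mean and 9.08 times the DSS + EA mean (10.6 and 4.26 times without control mouse 2). Per 1000 *Epcam* reads the DSS mice, at 317, 306 and 984, overlapped the DSS + EA mice, at 410, 1325 and 2249, while the control mice, at 5419 to 24844, lay above both.

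Against surface colonocyte markers, genes of the mature absorptive cells near the lumen, the cluster gave 155 ± 120 reads per 1000 in control, 9.39 ± 5.16 in DSS and 12.7 ± 1.97 in DSS + EA mice. The DSS range, 3.56 to 13.4, overlapped the DSS + EA range, 10.5 to 14.3. The control range, 69.6 to 292, stayed above both. *Lypd8*, a secreted surface protein that binds flagella, gave a large part of these marker reads, 38.7% to 41.4% in control, 51.1% to 54.0% in DSS and 56.9% to 61.6% in DSS + EA mice. Without it, an alternative added after the data were seen, the cluster gave 261 ± 207, 19.7 ± 10.7 and 32.0 ± 6.72 reads per 1000, and the DSS range, 7.73 to 28.4, still overlapped the DSS + EA range, 24.4 to 37.2. For *Gsdmc2* the mean per surface colonocyte read was lower in the DSS + EA group, at 4.19 ± 0.378, than in the DSS group, at 4.88 ± 3.51, a difference within the spread, while for *Gsdmc3* it was 1.04 ± 0.140 against 0.568 ± 0.311.

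**Figure D4:**
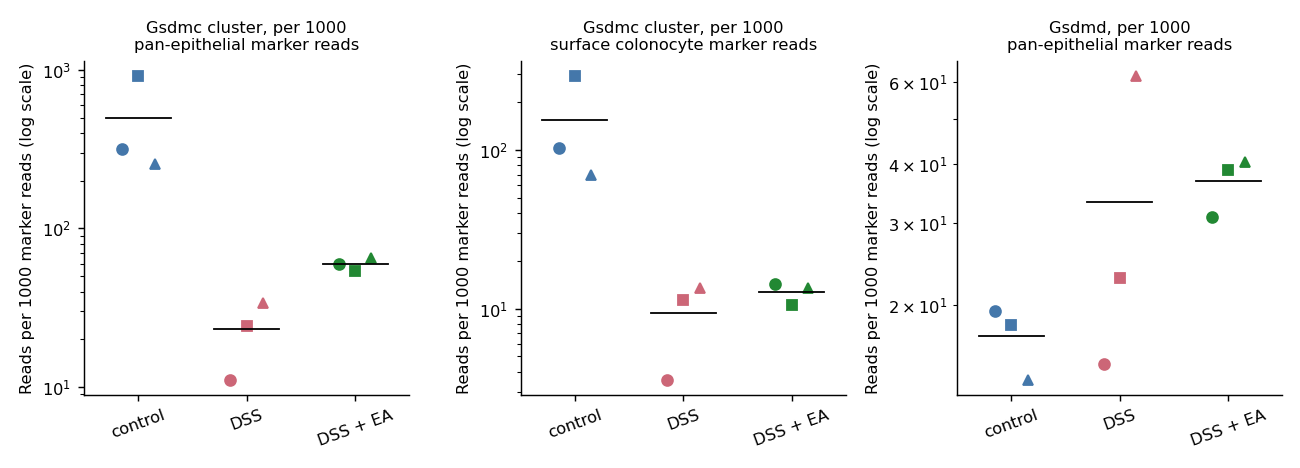
Reads of the *Gsdmc* cluster per 1000 pan-epithelial marker reads (left), per 1000 surface colonocyte marker reads (middle), and reads of *Gsdmd* per 1000 pan-epithelial marker reads (right), each on a log axis. Circles, squares and triangles are mice 1, 2 and 3 and black lines are means. The cluster ratio separates all 3 groups on the left, while DSS and DSS + EA mice overlap in the middle.

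As a list, the 16 surface colonocyte markers did not follow the cluster in the comparison of DSS + EA with control. With DSS, 9 fell and 1, the chloride channel accessory gene *Clca4b*, rose (edgeR, adjusted p under 0.05). With EA against DSS, 8 rose. Against control, 1 was called, again *Clca4b* as higher (2 at an unadjusted p under 0.05 and 2 by DESeq2), with a median log2 fold change of 0.03 beside 0.00 for all genes. *Guca2a* and *Fabp2*, picked out after their values were seen, lay between DSS and control. They averaged 4792, 552 and 2379 CPM, and 1603, 61.3 and 503 CPM, in control, DSS and DSS + EA. Their log2 fold changes against control were -1.01 and -1.67 (adjusted p = 0.557 and 0.518 by edgeR), without overlap of the groups. *Lypd8*, *Slc51b*, *Clca4b* and *Plac8* lay above control without overlap. Over all genes 32.2% did not overlap. In the comparison with control 3 of 4 tested members were called lower, beside 0.637% of all genes. These 3 are *Gsdmc* copies alike in sequence, with uncertain single counts, so they are not 3 separate results. Summed CPM of the markers was 16541 to 22487 in the control group, 2825 to 13479 in the DSS group and 23007 to 24882 in the DSS + EA group. All 8 goblet cell markers fell with DSS and 6 rose with EA against DSS. Against control edgeR called 0 of them, with 2 at an unadjusted p under 0.05 and 2 called by DESeq2, but their log2 fold changes ran from -3.09 to 0.67 with a median of -0.75, and the groups did not overlap for any of the 8. *Clca1*, a secreted goblet cell protease, and *Fcgbp*, a mucus protein, both named after their values were seen, had a course like that of the *Gsdmc* copies. *Clca1* averaged 3821, 46.3 and 450 CPM and *Fcgbp* 1947, 76.6 and 379 CPM in control, DSS and DSS + EA. Their log2 fold changes against control were -3.09 (SE 0.81, adjusted p = 0.0705 by edgeR and 0.0173 by DESeq2) and -2.36 (SE 0.69, adjusted p = 0.101 by edgeR and 0.00575 by DESeq2), and without DSS mouse 3 edgeR called both (adjusted p = 0.00699 and 0.00788). *Clca1* also passed without DSS mouse 2 (adjusted p = 0.0453). The rise of *Fcgbp* with EA against DSS was lost without DSS mouse 2 or any single DSS + EA mouse (adjusted p up to 0.0762 by edgeR). A level between DSS and control was thus not particular to the cluster. Among 9 pan-epithelial markers, 4 fell with DSS and 3 rose with EA against DSS. Against control edgeR called 0, with 1 at an unadjusted p under 0.05 and 0 by DESeq2. Among 6 tested crypt base markers 2 fell with DSS, 1 rose with EA against DSS and 0 were called against control by edgeR, with 1 at an unadjusted p under 0.05 and 0 by DESeq2.

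*Gsdmd* gave a different picture per epithelial read. Per 1000 pan-epithelial reads it had 19.4, 18.1 and 13.8 reads in the control mice, 14.9, 22.8 and 61.9 in the DSS mice and 30.9, 38.9 and 40.5 in the DSS + EA mice. The DSS mice overlapped both other groups, with the highest value in DSS mouse 3, which had the lowest epithelial level. The means were 17.1 ± 2.97, 33.2 ± 25.2 and 36.7 ± 5.12. Per 1000 *Epcam* reads the DSS + EA mice, at 211, 951 and 1399, overlapped the control mice, at 293 to 493. The DSS mice, at 288 to 1789, overlapped both. Per 1000 surface colonocyte reads the control mice had 3.77 to 6.29 *Gsdmd* reads and the DSS + EA mice 7.36 to 8.31, without overlap. The DSS mice, at 4.77 to 24.3, overlapped both. Their mean of 13.2 lay above the DSS + EA mean of 7.74, within the spread. Cells other than epithelium also make *Gsdmd*, and their markers differed between the groups. All 8 tested neutrophil markers rose with DSS, and their summed CPM was 22.6 to 159 in the control group, 4457 to 26607 in the DSS group and 1194 to 1592 in the DSS + EA group. Of 9 macrophage markers 8 rose with DSS, and their summed CPM was 517 to 540, 1624 to 3039 and 1036 to 1190. *Gsdmd* was lowest in the DSS group, where both lists were highest. The part of these cells in the *Gsdmd* level was not tested.

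Pancreas transcripts were set beside the members within the DSS + EA group. The summed CPM of the 10 acinar genes was 440, 31310 and 15363 in mice 1, 2 and 3. *Gsdmd* was at 177, 174 and 207 CPM and *Gsdmc2* at 111, 92.3 and 97.7 CPM in the same mice. *Gsdmc4*, at 207, 123 and 212 CPM, and the cluster as a sum, at 343, 242 and 332 CPM, were lowest in mouse 2, which had the most pancreas transcripts. *Gsdmc3*, at 25.6, 26.9 and 22.2 CPM, was highest in mouse 2. For the 10 acinar genes, 10 were called higher against DSS and 9 against control. Their part in the member results was not tested beyond leaving out single mice.

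Other gasdermin genes were mostly silent. *Gsdme*, another pore-forming gasdermin, was the only further family member with enough counts to test. It had 35 to 79 counts in the control group, 8 to 16 in the DSS group and 26 to 48 in the DSS + EA group, with means of 18.5 ± 10.2, 3.61 ± 1.25 and 12.9 ± 4.85 CPM. By edgeR it fell with DSS (log2 fold change -2.34, SE 0.46, adjusted p = 0.00345) and rose with EA against DSS (1.82, SE 0.47, adjusted p = 0.0145), though without DSS mouse 2 the latter was lost (adjusted p = 0.0534). Between DSS + EA and control its value was -0.52 (SE 0.42, adjusted p = 0.586). *Gsdma*, known from skin, had at most 4 counts in the control and DSS + EA mice and 3 to 20 in the DSS mice. *Gsdma2* and *Gsdma3* had 0 counts in all 9 mice, and *Pjvk*, known from hearing, had at most 1 count in any mouse.

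Of 8 proteases that cut gasdermins, 6 were tested by edgeR. With DSS 2 fell, and with EA against DSS 2 rose, in both cases *Casp1* and *Casp8*. Against control edgeR called 0, with 3 at an unadjusted p under 0.05 and 0 by DESeq2. *Casp1*, which cuts gasdermin D, averaged 85.7 ± 15.7 CPM in control, 32.4 ± 10.7 in DSS and 111 ± 9.03 in DSS + EA mice (log2 fold change 1.79, SE 0.25, adjusted p = 0.00111 against DSS). *Casp8*, the initiator caspase reported to cut gasdermin C, averaged 59.8 ± 4.05, 32.4 ± 10.8 and 98.0 ± 18.6 CPM (1.60, SE 0.26, adjusted p = 0.00193 against DSS by edgeR). *Casp4*, the gene of mouse caspase 11, which cuts gasdermin D after sensing lipopolysaccharide, averaged 33.7 ± 2.70, 34.5 ± 4.86 and 37.9 ± 2.89 CPM and was not called in any comparison. The fall of *Casp8* with DSS was lost without control mouse 2, DSS mouse 2 or DSS mouse 3 (adjusted p = 0.0605, 0.0563 and 0.0535 by edgeR). *Casp6* averaged 55.5 ± 4.68, 50.5 ± 11.9 and 54.2 ± 1.39 CPM and was called in none of the 3 comparisons. The neutrophil proteases *Elane* and *Ctsg* were too low to test.

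Most inflammasome sensors, and their adaptor, were low in the DSS group. Of 9 tested, 7 fell and 1 rose with DSS, and 8 rose and 1 fell with EA against DSS. Against control edgeR called 0, with 1 at an unadjusted p under 0.05 and 1, *Nlrp3*, by DESeq2 (adjusted p = 0.00582). *Nlrp6*, a sensor of gut epithelium, averaged 65.9 ± 6.90, 4.40 ± 5.13 and 71.3 ± 5.67 CPM in control, DSS and DSS + EA. *Pycard*, the adaptor ASC that links sensors to caspase 1, averaged 498 ± 25.0, 237 ± 79.9 and 560 ± 45.7 CPM, with a log2 fold change of 1.24 (SE 0.25, adjusted p = 0.00495 by edgeR) against DSS. *Naip1*, *Naip2*, *Naip5* and *Naip6*, receptors for bacterial flagellin and secretion needles, had log2 fold changes of 1.86, 1.43, 1.16 and 1.37 against DSS. *Aim2*, a sensor of DNA, had 0.98. The sensor *Nlrp3*, made mostly in myeloid cells, moved the other way, with 0 counts in the control mice, 17 to 89 in the DSS mice and 4 to 8 in the DSS + EA mice. The fall of *Naip1* with DSS was lost without control mouse 3 (adjusted p = 0.0643 by edgeR) or DSS mouse 2 (adjusted p = 0.0731), and the rise of *Nlrc4*, the partner of the NAIP receptors, with EA was lost without any DSS + EA mouse and without DSS mouse 2 or 3 (adjusted p from 0.068 to 0.0982).

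**Figure D5:**
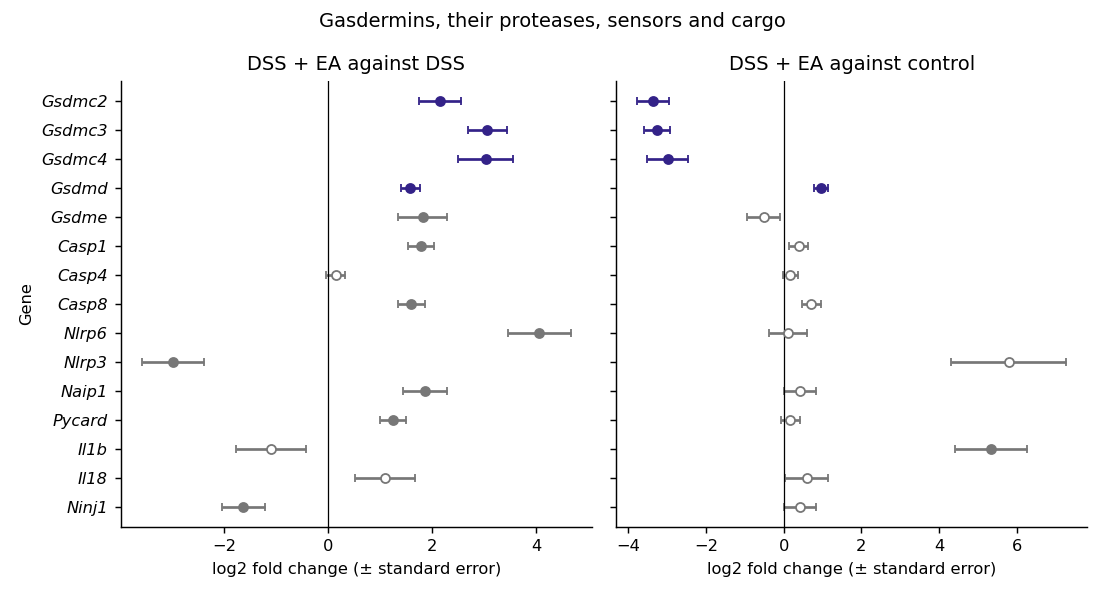
Log2 fold changes with standard errors for the 4 tested members (blue) and for another gasdermin, proteases, sensors and released factors (grey), in DSS + EA against DSS (left) and DSS + EA against control (right). Filled points passed an adjusted p of 0.05 in edgeR. The *Gsdmc* copies lie right of 0 on the left, from 2.15 to 3.06, and left of 0 on the right, from -3.36 to -2.99.

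Factors released through gasdermin pores, or acting at membrane rupture, were high in the DSS group, where *Gsdmd* was lowest. Of 6 tested, 5 rose with DSS, 4 fell with EA against DSS, and 2 were higher against control by edgeR (3 at an unadjusted p under 0.05 and 3 by DESeq2). The third, *Il1a*, had 0 counts in the control mice and 8 to 41 in the DSS + EA mice (adjusted p = 0.0558 by edgeR, 0.0156 without DSS mouse 1, 0.0389 without DSS mouse 3, and 4.03e-05 by DESeq2). *Il1b*, which leaves cells through gasdermin D pores, averaged 1.80 ± 1.10 CPM in control, 152 ± 116 in DSS and 71.0 ± 54.9 in DSS + EA mice. It was not called against DSS (log2 fold change -1.10, SE 0.68, adjusted p = 0.23) but passed without DSS mouse 1 (adjusted p = 0.046), and was higher than control (5.34, SE 0.93, adjusted p = 0.0137), a call lost without control mouse 1 or 2 (0.0916 and 0.079). *Il18*, an epithelial member of the same family, averaged 125 ± 56.7, 88.8 ± 79.3 and 189 ± 31.9 CPM and was not called, though without DSS mouse 1 it was lower with DSS (adjusted p = 0.0112) and higher with EA (adjusted p = 0.00304). *Ninj1*, which carries out the final tearing of the membrane, averaged 22.5 ± 2.68, 93.2 ± 62.6 and 30.1 ± 4.15 CPM. Its fall with EA against DSS had an adjusted p of 0.0133, and 0.0538 without DSS + EA mouse 3, by edgeR. The other falls against DSS were those of *Il1a*, *Il33* and *Hmgb1*, and each was lost without some single mice, with adjusted p up to 0.126, 0.0966 and 0.143. For *Hmgb1* this was so without any single mouse but DSS mouse 1, and also with no filter on low counts (adjusted p = 0.147 by edgeR). Each was also lost with only the 2 compared groups in the fit and with the replicate block. *Il33* was the other gene above control, with an adjusted p of 0.0488 that rose to as much as 0.214 without control mouse 1. Of 14 genes of the ESCRT-III machinery, which removes damaged membrane, 5 fell with DSS and 4 rose with EA against DSS. Against control edgeR called 0, with 0 at an unadjusted p under 0.05 and 0 by DESeq2.

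Genes of type 2 cytokine signalling, known to raise *Gsdmc* genes in the gut, were also read. *Il13* had 0 counts in all 9 mice, which was not detectable at this depth. *Il4* had at most 3 counts in any mouse and *Il5* at most 4, both too low to test. *Tslp*, an epithelial cytokine upstream of type 2 responses, had 5 to 13 counts in every mouse and was called in no comparison. Of 8 tested genes, 2 rose and 2 fell with DSS, 1 rose and 1 fell with EA against DSS and 2 were higher against control. *Tyk2* averaged 16.2 ± 2.24, 8.86 ± 1.56 and 16.4 ± 2.81 CPM in control, DSS and DSS + EA. By edgeR it fell with DSS (adjusted p = 0.0168) and rose with EA against DSS (adjusted p = 0.0178). The fall was lost without control mouse 3 or DSS mouse 2. The rise was lost without DSS mouse 2 or DSS + EA mouse 1 or 3 (adjusted p up to 0.0758). *Il4ra*, the receptor chain shared by IL-4 and IL-13, averaged 23.6 ± 4.39 CPM in control, 252 ± 89.2 in DSS and 59.1 ± 5.56 in DSS + EA mice. By edgeR it rose with DSS (log2 fold change 3.42, SE 0.30, adjusted p = 6.15e-05), and fell with EA against DSS (-2.09, SE 0.28, adjusted p = 0.000899). Its excess over control (1.32, adjusted p = 0.0356) was lost without any single control or DSS + EA mouse (up to 0.144). *Il2rg*, the common gamma chain, was likewise higher than control (1.40, adjusted p = 0.049), which was lost without DSS mouse 2 and without any control or DSS + EA mouse (up to 0.214). *Stat6*, the factor these receptors activate, averaged 21.2 ± 2.03, 19.5 ± 4.35 and 28.5 ± 3.93 CPM and was not called in any comparison, though it passed against DSS without DSS mouse 3 (adjusted p = 0.0497). *Il13ra1* and *Jak1* were also called in no comparison. Without DSS mouse 1, *Jak1* rose with DSS and fell with EA against DSS (adjusted p = 0.00319 and 0.00177 by edgeR). *Retnlb*, a goblet cell product that type 2 cytokines induce, had 7995 to 23893 counts in the control mice, 199 to 5005 in the DSS mice and 4087 to 5085 in the DSS + EA mice. It fell with DSS (-2.85, adjusted p = 0.0439 by edgeR), a call lost without any single control or DSS + EA mouse and without DSS mouse 2 or 3 (up to 0.141). It rose with EA against DSS only without DSS mouse 1 (adjusted p = 0.00166) and was not called between DSS + EA and control (-1.52, adjusted p = 0.466).

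The protein-coding neighbours of the cluster did not share its course. *Fam49b*, a regulator of actin 16800 bases away, averaged 6.74 ± 1.83 CPM in control, 21.5 ± 8.66 in DSS and 6.56 ± 1.90 in DSS + EA mice. *Asap1*, an Arf GTPase activator 174560 bases away, averaged 6.50 ± 0.467, 14.5 ± 5.62 and 4.86 ± 2.30 CPM. Both rose with DSS and fell with EA against DSS by edgeR, opposite to the *Gsdmc* copies, but the rise of *Asap1* was lost without any single control mouse, DSS mouse 2 or DSS + EA mouse 2 (adjusted p up to 0.133). Near *Gsdmd*, the metabolic genes *Naprt*, *Pycrl* and *Tsta3* fell with DSS and rose with EA against DSS, with log2 fold changes of 1.28, 1.59 and 0.91 in the second comparison. There the call for *Naprt* was lost without DSS mouse 2 or 3 or DSS + EA mouse 1 or 3 (adjusted p up to 0.126 by edgeR), and that for *Tsta3* without any single mouse but DSS mouse 1 (up to 0.123). Against control their values were -0.73, -0.20 and -0.34 and none was called, whereas *Gsdmd* was above control. *Eef1d*, *Zc3h3* and *Zfp623*, also within 100000 bases, were called in no comparison.

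Likeness to the members was described by Pearson's r of log2 CPM over the 9 libraries, which share their groups, so that r mostly reflects group means. *Gsdmc2*, *Gsdmc3* and *Gsdmc4* had r of 0.977 to 0.991 with each other, and *Gsdmd* had r of 0.353 with *Gsdmc3* and 0.385 with *Gsdmc4*. The genes most like *Gsdmc3* were *Vkorc1* (r = 0.995), which recycles vitamin K, *Mgl2* (0.984), a lectin of macrophages and dendritic cells, an unnamed Nanopore locus (0.981), *Cyp2c69* (0.976), a cytochrome P450, and *Cracr2a* (0.976), a calcium channel regulator. *Gsdmc2* had *Vkorc1* (0.990), *Mgl2* (0.985), *Cyp2c69* (0.978), *Cracr2a* (0.973) and another unnamed locus (0.972). *Mgl2* averaged 11.8, 0.536 and 2.63 CPM and *Vkorc1* 81.1, 41.6 and 56.4 CPM in control, DSS and DSS + EA, so similar patterns came with very different sizes of change. The genes most like *Gsdmd* were *Nudcd3* (0.978), a chaperone cofactor, an unnamed locus (0.974), *Ifi35* (0.973), an interferon-induced gene, *Plin2* (0.969), a lipid droplet protein, and *Slc5a9* (0.967), a sugar transporter. *Ifi35* averaged 57.9, 27.2 and 147 CPM, the same order of groups as *Gsdmd*.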

How the data were processed

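Colon RNA of 9 mice, 3 per group, was sequenced as full-length Nanopore cDNA after PCR, without molecular identifiers. The authors deposited raw whole-number counts per gene for each mouse. The submitters' processing notes name mm10, while the aligner, counting tool, annotation and use of strand were not given in the sources used here. Counts were fitted with edgeR 4.0.16 in R 4.3.3 (TMM scaling, filterByExpr by group, quasi-likelihood F test, group as the only term, all 9 libraries, prior count 0.125), which left 12566 genes. A gene was called at a Benjamini-Hochberg adjusted p under 0.05. The standard error is the size of the log2 fold change divided by the square root of F. CPM used TMM-adjusted totals, and CPM per kb used the annotated transcript with the longest coding sequence. With 3 mice against 3 an exact permutation test cannot go below p = 0.1, so single ratios and shares were described without one. Replicates were separate mice by the labels.

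The members, the lists and the alternatives were chosen with earlier results of these data known. Named genes were the 5 members, every tested gene of the gasdermin, protease, inflammasome, released factor and type 2 lists with a mean of 20 or more counts, up to 4 genes of each other list, protein-coding neighbours within 500000 bases of the cluster or 100000 bases of *Gsdmd*, and the 5 genes most like *Gsdmc2*, *Gsdmc3* and *Gsdmd* by Pearson's r (log2 CPM, prior count 2). A squamous epithelium list had 1 gene tested, called lower in DSS + EA against DSS by edgeR and not by DESeq2. Alternatives were edgeR with RLE factors, library totals, DESeq2 1.42.0, other filters and prior counts, the 2 compared groups alone, the study's thresholds, a replicate block and leaving out each mouse. For the *Gsdmc* copies the cluster rows were also summed. Marker ratios without control mouse 2 and without *Lypd8* were added after seeing the data. Coding sequences (GENCODE M21) were aligned with MAFFT 7.526, and the promoter is from RefSeq. Scripts were tested on simulated data. *Gsdmc* pseudogenes of the cluster were not analysed here, and some genes of the protease list are not reported here.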

Additional observations from a re-analysis of the deposited data

How the results depend on the processing

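Of 142 alternative values for the 4 tested members in the comparisons of DSS + EA with DSS and with control, 134 kept direction and side of the threshold, 8 lost the call and 0 reversed. The 8 were those of *Gsdmc4* and *Gsdmd* against control without single mice. The 71 values for DSS against control all kept their direction. Log2 fold changes ran from -5.80 to -4.83 for *Gsdmc2*, from -6.59 to -5.88 for *Gsdmc3*, from -6.35 to -5.30 for *Gsdmc4* and from -0.73 to -0.51 for *Gsdmd*. For each *Gsdmc* copy, the 142 and 71 values also count the fold of the cluster rows summed. That fold was -5.83 in DSS against control and is left out of these ranges. The number of members called against DSS was 4, and 2 with a log2 fold change beyond 2.5 and unadjusted p under 0.01, which *Gsdmc2* and *Gsdmd* miss by size. Against control it was 4, and 2 to 4 when single mice were left out. The number of genes called with DSS was 5144, and 1280 under those thresholds. For DSS + EA against DSS it was 4457, and 806 under them. For DSS + EA against control it was 457, and 261 under them, 703 with DESeq2, 1149 with only the 2 groups in the fit and 110 to 772 without single mice. The cause of these shifts was not tested. For the other named genes 3437 of 3698 alternative values kept the call or its absence, 186 lost the call and 75 gained it. A change of direction was counted only where 1 of the 2 values was called, and 0 such values reversed. Values not called could change sign, as that of *Casp6* with DSS did, from -0.14 to 0.07 without DSS mouse 2. Other scalings moved the median of all genes by at most 0.08 on the log2 scale.

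Mice share replicate numbers in the labels, but same-numbered mice did not deviate together, with correlations of their deviations from -0.160 to 0.105. With the replicate block 4543, 3829 and 364 genes were called in DSS against control, DSS + EA against DSS and DSS + EA against control, and 4 members were called in each of the last 2 comparisons. The counts behind *Gsdmc3* in the DSS mice, 8 to 13, and the 121 cluster reads of DSS mouse 3 limit what can be read from folds and shares there.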
